A study of Mus musculus with 23 samples.

Results

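The genes described are 10 components of transforming growth factor-beta (TGF-beta) signalling, the pathway that maintains microglial identity, and they are 10 of the 33280 genes in the counts table. They were taken by gene symbol, with no measured value in the rule, but were chosen with earlier results of these data known. All 10 were present and passed the filter on low counts in every comparison. RNA was sequenced from brain macrophages of adult Ccr2creERT2/+ R26tdT/tdT mice, 1 day after a thromboembolic stroke induced by thrombin in the middle cerebral artery. Gavage for 7 days with BLZ945 (200 mg/kg), which inhibits the CSF-1 receptor on which brain macrophages depend, or with its vehicle (CTL), preceded the stroke by 8 weeks. All groups received tamoxifen (2 mg per day), which activates the Cre recombinase made under control of the monocyte receptor gene Ccr2 and so labels monocytes and the cells that derive from them with tdTomato (tdT). Sorted cells were microglia (MG, CD206-) and subdural CNS-associated macrophages (sdCAMs, CD206+ macrophages of the leptomeninges and perivascular space), the latter split by tdT. By the methods of the study the gate was CD45+ CD11b+ and excluded cells positive for Ly6C, Ly6G or CD11c, the surface markers of many monocytes, neutrophils and dendritic cells. The 5 groups comprised 5 libraries each of MG and of tdT- sdCAMs from CTL animals (MG CTL, tdT- CTL) and from BLZ945 animals (MG BLZ945, tdT- BLZ945), and 3 of tdT+ BLZ945 sdCAMs, and no group without stroke was among the libraries analysed here. Libraries are named F1, F2, F3, M1 and M2 as in the sample titles, and MG and sdCAMs of the same name and treatment came from the same animals. Each CTL library held 1 animal and each BLZ945 library 2, except F2, which held 1. An animal number of F2 also occurs in the library name of M1 in the BLZ945 groups, so these libraries may share an animal. Since tdT marks cells only if Ccr2 was active when tamoxifen was given, tdT- sdCAMs may include cells of monocyte origin that escaped the label.

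TGF-beta is secreted in a latent complex, held inactive by its own propeptide. On microglia this complex is anchored to the cell surface by NRROS (also LRRC33), and integrins that contain the alpha-v chain, encoded by Itgav, bind the propeptide and release the active ligand. Active TGF-beta binds the type II receptor TGFBR2, which recruits and phosphorylates the type I receptor TGFBR1. TGFBR1 in turn phosphorylates SMAD2 and SMAD3, which enter the nucleus with SMAD4 and regulate transcription. SMAD7, itself induced by the pathway, blocks TGFBR1, and the nuclear proteins SKI and SKIL (SnoN) bind the SMADs and repress their targets. In microglia this signalling is required for the adult, homeostatic gene programme.

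The promoters of Tgfbr1, Itgav and Nrros are shown because they belong to the type I receptor and the 2 activators, whose levels in MG and sdCAMs did not overlap, with Tgfbr1 and Itgav lower and Nrros higher in sdCAMs. The windows are RefSeq sequence of the mouse assembly GRCm38.p6, run from 250 bases before to 50 bases after the annotated start of the gene, and are printed 5′ to 3′ on the strand of the gene. Capitals mark the letters GGCGC or CAGAC, which SMAD proteins can bind, and GAGGAAGT, a form of the site of the macrophage factor PU.1, on either strand.
Tgfbr1 (chr4:47352972-47353271, plus strand): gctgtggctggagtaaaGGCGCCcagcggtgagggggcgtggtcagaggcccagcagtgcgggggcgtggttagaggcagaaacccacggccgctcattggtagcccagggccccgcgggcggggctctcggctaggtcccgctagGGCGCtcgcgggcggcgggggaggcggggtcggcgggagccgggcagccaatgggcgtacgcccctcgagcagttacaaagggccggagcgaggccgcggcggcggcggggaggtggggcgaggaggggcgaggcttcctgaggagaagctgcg
Itgav (chr2:83724147-83724446, plus strand): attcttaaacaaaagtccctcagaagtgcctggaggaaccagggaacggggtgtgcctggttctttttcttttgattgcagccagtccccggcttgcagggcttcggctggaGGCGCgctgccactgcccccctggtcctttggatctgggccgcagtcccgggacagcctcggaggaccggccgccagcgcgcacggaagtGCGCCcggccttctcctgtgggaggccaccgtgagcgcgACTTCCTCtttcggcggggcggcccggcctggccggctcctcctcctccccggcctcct
Nrros (chr16:32165545-32165844, minus strand): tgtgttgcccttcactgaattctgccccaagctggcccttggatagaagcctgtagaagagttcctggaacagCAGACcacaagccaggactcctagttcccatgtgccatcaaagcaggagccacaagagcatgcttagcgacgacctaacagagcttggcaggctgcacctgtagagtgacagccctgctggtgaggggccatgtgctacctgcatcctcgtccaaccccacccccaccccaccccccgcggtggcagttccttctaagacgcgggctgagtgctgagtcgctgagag
The Tgfbr1 window held GGCGC at 3 positions over both strands (GGCGCC counts on each) and no CAGAC, and 74.7% of its bases were G or C, with 34 CG dinucleotides. The Itgav window held GGCGC at 2 positions and GAGGAAGT at 1, and had a GC share of 67.3% and 24 CG dinucleotides. The Nrros window held CAGAC at 1 position and neither of the other motifs, with a GC share of 59.0% and 8 CG dinucleotides, close to the median of 7 over all 32851 promoter windows of this length. Over those windows, 36.9% held GGCGC, 49.6% held CAGAC and 3.20% held GAGGAAGT, so only the last was uncommon. These matches describe the letters in the windows, and binding was not measured. Sequences were given for 7 of the 10 genes, and Tgfbr1 has a further annotated start that is not shown.

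Library totals lay between 9433960 and 13276081 counts. Levels are given as CPM, counts per 1000000 of the TMM-adjusted library total, and 3 counts, taken as the floor, equalled 0.230 to 0.331 CPM, which covers counting error only. The sorted populations carried their markers: the summed level of 5 microglial markers (P2ry12, Tmem119, Sall1, Siglech and Gpr34) was 7949 to 13906 CPM in MG CTL and 9156 to 13369 CPM in MG BLZ945, against 774 to 1143, 941 to 1504 and 844 to 1444 CPM in tdT- CTL, tdT- BLZ945 and tdT+ BLZ945 sdCAMs. The 6 border macrophage markers, Mrc1 (the CD206 gene used in the sort) among them, summed to 12842 to 16146, 11273 to 14966 and 9447 to 12128 CPM in these sdCAM groups and to at most 186 CPM in MG. Monocyte markers stood apart in the tdT- BLZ945 libraries F1 (218 CPM, summed over 6 genes) and M1 (100.04 CPM), against 0 to 46.6 CPM in all other libraries, and F1 also had the highest sum of neutrophil markers (74.1 CPM), although Ly6g was at 0 in every BLZ945 library. Results that rest on tdT- BLZ945 sdCAMs were therefore computed again without F1 and M1, which changed no call among the 10 genes (10 of 10 against MG with either set, median log2 fold change -1.41 without them). Calls were made where the adjusted p fell under 0.05 (edgeR quasi-likelihood test, Benjamini-Hochberg over all genes tested), and errors of log2 fold changes are standard errors.

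The first question was how the pathway differed between sdCAMs and MG. The type I receptor Tgfbr1, the inhibitors Smad7, Skil and Ski, the integrin chain Itgav and Smad3 were lower in sdCAMs than in MG in all 3 comparisons, and Nrros was higher. Tgfb1, Tgfbr2 and Smad2 were not called in CTL animals, where their sdCAM means stood at 85.9%, 96.7% and 109% of the MG means. In CTL animals 7 of the 10 genes were called, 1 higher and 6 lower in tdT- sdCAMs, where 25.6% of the 12697 genes tested were called, 15.3% higher and 10.3% lower. In BLZ945 animals all 10 genes were called for tdT- sdCAMs against MG, 1 higher and 9 lower, where 32.4% of the genes tested were called, 18.3% higher and 14.1% lower. For tdT+ sdCAMs against MG of the same treatment 9 of the 10 were called, 1 higher and 8 lower, where 18.9% of 12868 genes were called, 11.8% higher and 7.05% lower. The values of the compared groups did not overlap for 7, 8 and 8 of the 10 genes, as was the case for 26.8%, 22.0% and 34.8% of all genes tested. The median log2 fold change over the 10 genes was -1.19, -1.32 and -1.66, against -0.01, -0.02 and -0.01 over all genes tested. Because the 10 genes were chosen with earlier results known, the shares and medians over all genes are set beside them as a description only. In bulk RNA of sorted cells, fewer cells with a transcript and less transcript per cell cannot be told apart.

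**Figure D1:**
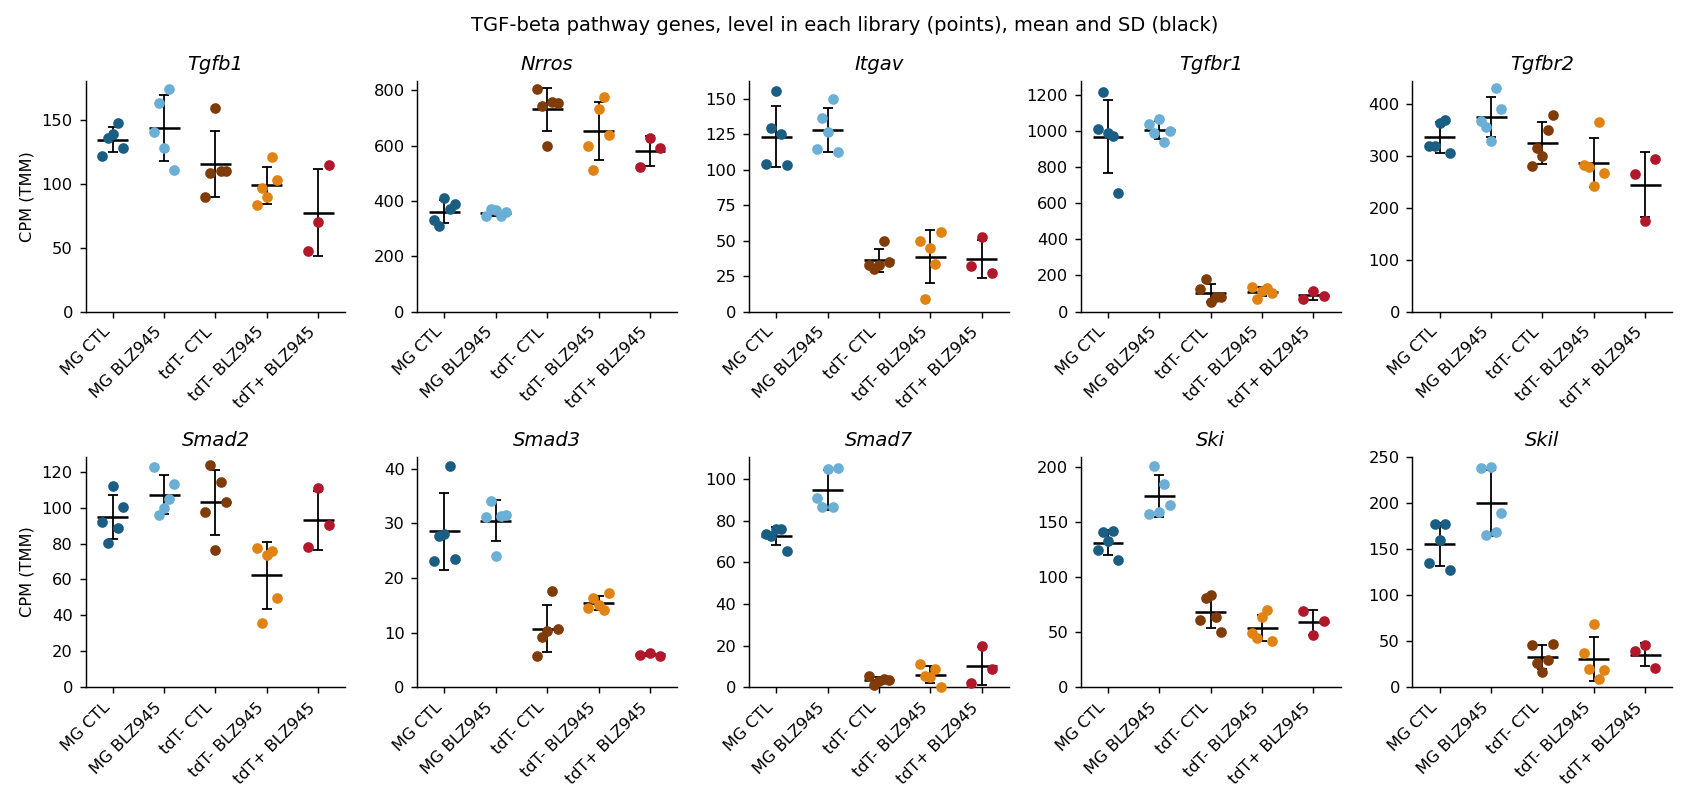
Level of the 10 genes (vertical axes, CPM with TMM scaling, each panel on its own scale from 0) in each library (points) of the 5 groups (horizontal axes), with the group mean and SD in black. Tgfbr1 lay between 656.3 and 1217 CPM in MG and between 54.7 and 181 CPM in sdCAMs, and Nrros lay between 309 and 409 CPM in MG and between 513 and 803 CPM in sdCAMs.

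Among the ligand and its activators, Nrros, which tethers latent TGF-beta to the cell, was the gene that stood higher in sdCAMs. In MG CTL libraries F1, F2, F3, M1 and M2, in this order here and below, it measured 331, 309, 409, 371 and 387 CPM, and in tdT- CTL sdCAMs 803, 741, 599, 756 and 755 CPM. In BLZ945 animals it measured 347, 371, 368, 345 and 358 CPM in MG and 597, 513, 733, 775 and 638 CPM in tdT- sdCAMs, and the tdT+ libraries F2, F3 and M2, in this order here and below, measured 522, 629 and 589.9 CPM. Every sdCAM library was above every MG library. The log2 fold change of sdCAMs minus MG was 1.01 ± 0.12 in CTL animals (adjusted p = 6.91e-07), 0.87 ± 0.12 for tdT- cells in BLZ945 animals (adjusted p = 4.86e-06) and 0.71 ± 0.14 for tdT+ cells (adjusted p = 0.00256).

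Itgav, the alpha-v chain of the integrins that free TGF-beta, ran the other way. It measured 104, 129, 155, 125 and 103 CPM in MG CTL and 33.0, 29.8, 33.0, 50.1 and 34.7 CPM in tdT- CTL sdCAMs. After BLZ945 the values were 115, 136, 127, 149.7 and 113 CPM in MG, 49.9, 9.08, 45.005, 33.6 and 56.1 CPM in tdT- sdCAMs and 32.0, 52.5 and 27.1 CPM in tdT+ sdCAMs. All sdCAM libraries were below all MG libraries, with the tdT- BLZ945 library F2 the lowest at 84 counts. The log2 fold changes were -1.78 ± 0.30, -1.71 ± 0.30 and -1.77 ± 0.43 (adjusted p = 8.27e-05, 1.14e-04 and 0.00962). Reads of a predicted antisense gene that shares 634 exonic bases with Itgav in GENCODE M21 cannot be told apart from it without strand.

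Tgfb1, the ligand gene, overlapped between the populations. Its range was 122 to 148 CPM in MG CTL and 89.7 to 159 CPM in tdT- CTL sdCAMs, a log2 fold change of -0.23 ± 0.15 that was not called (adjusted p = 0.315, and 0.0461 without the tdT- CTL library F3, its highest). After BLZ945 it measured 141, 164, 128, 174 and 111 CPM in MG and 83.8, 96.5, 89.8, 121 and 103 CPM in tdT- sdCAMs, so that only M1 of the latter exceeded the lowest MG library. That difference was called (-0.53 ± 0.15, adjusted p = 0.00991). The tdT+ sdCAMs measured 47.6, 70.0 and 114 CPM, with M2 inside the range of MG. Their difference from MG was -0.88 ± 0.25 (adjusted p = 0.0245), and it was lost with the animal as a block (-0.87 ± 0.27, adjusted p = 0.0541). It was also lost without the MG libraries F2 or M1 (adjusted p = 0.0505 for either) and without the tdT+ libraries F2 or F3 (0.110 and 0.0887).

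**Figure D2:**
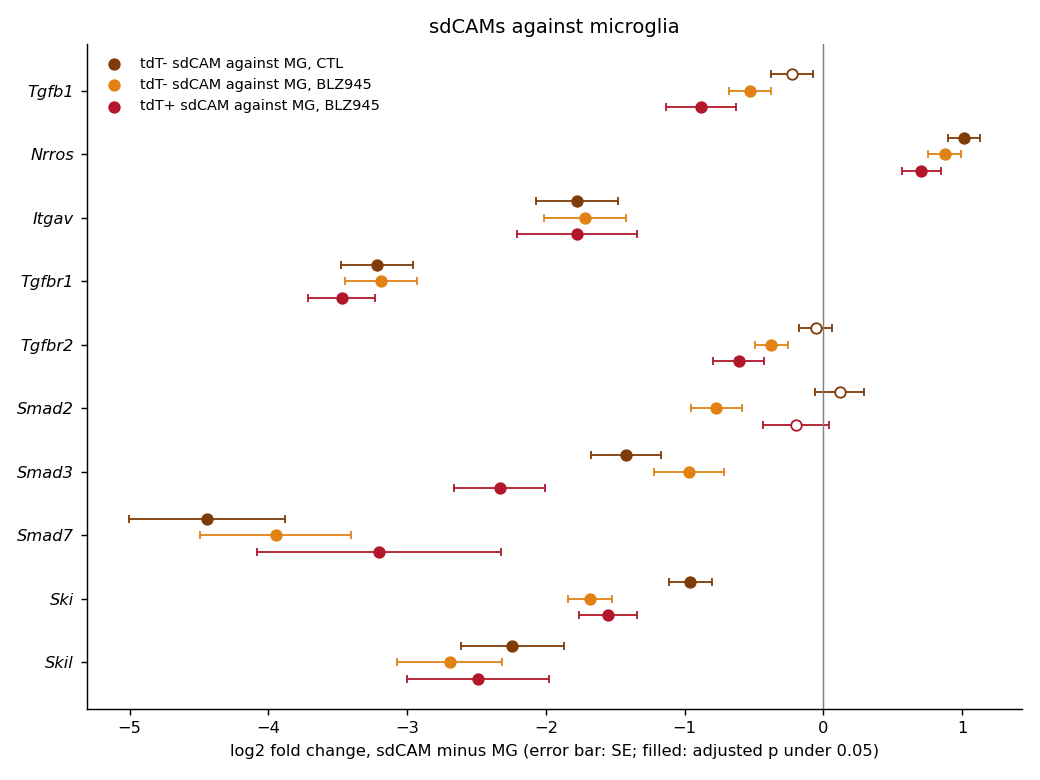
Log2 fold change of sdCAMs minus MG (horizontal axis) for the 10 genes (rows) in CTL animals and, for tdT- and tdT+ cells, in BLZ945 animals; bars are standard errors, and filled points passed an adjusted p of 0.05. Tgfbr1 lay between -3.47 and -3.19 in the 3 comparisons, and Nrros was the gene to the right of 0 in each of them with a called value.

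The receptors parted, with a large difference in the type I receptor and a small or no called difference in the type II receptor. Tgfbr1 measured 1008, 1217, 985, 969.9 and 656 CPM in MG CTL and 124, 181, 54.7, 82.4 and 78.3 CPM in tdT- CTL sdCAMs. In BLZ945 animals the levels were 1038, 986, 1064, 937 and 1000.04 CPM in MG, 133, 67.8, 114, 129 and 103 CPM in tdT- sdCAMs and 67.6, 115 and 86.6 CPM in tdT+ sdCAMs. The lowest MG library, M2 of CTL, was still above the highest sdCAM library, F2 of CTL. Tgfbr1 was 9.30-fold lower in CTL sdCAMs (log2 fold change -3.22 ± 0.26, adjusted p = 3.14e-09), 9.12-fold lower in tdT- BLZ945 sdCAMs (-3.19 ± 0.26, adjusted p = 3.78e-09) and 11.1-fold lower in tdT+ sdCAMs (-3.47 ± 0.24, adjusted p = 7.64e-08).

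Tgfbr2, which binds the ligand first, measured 305 to 369.6 CPM in MG CTL and 279 to 379 CPM in tdT- CTL sdCAMs, and the groups overlapped (log2 fold change -0.05 ± 0.12, adjusted p = 0.815). After BLZ945 it measured 367, 355, 328, 431 and 391 CPM in MG and 282.7, 278, 241, 365 and 268 CPM in tdT- sdCAMs. The sdCAM library M1 alone reached into the MG range, and the difference was -0.37 ± 0.12 (adjusted p = 0.0200), lost without the MG library M1 (0.0616). In tdT+ sdCAMs it measured 264, 174 and 294 CPM, all below MG. That difference was -0.61 ± 0.18 (adjusted p = 0.0314), lost without the tdT+ libraries F2 or F3 (0.0596 and 0.135) or the MG library M1 (0.0539).

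The receptor-activated Smads also parted. Smad3 measured 23.05, 27.8, 28.1, 40.5 and 23.5 CPM in MG CTL and 5.73, 9.22, 10.2, 17.6 and 10.7 CPM in tdT- CTL sdCAMs, where the highest sdCAM library, M1, was below the lowest MG library. In BLZ945 animals it measured 31.2, 34.1, 24.1, 31.4 and 31.6 CPM in MG, 14.6, 16.3, 15.002, 14.2 and 17.2 CPM in tdT- sdCAMs and 5.88, 6.33 and 5.79 CPM in tdT+ sdCAMs. The tdT+ libraries were the lowest and the closest together of the BLZ945 groups. The log2 fold changes against MG were -1.42 ± 0.25, -0.97 ± 0.25 and -2.33 ± 0.33 (adjusted p = 1.83e-04, 0.00517 and 1.21e-04). Smad2, its close relative, measured 80.3 to 112 CPM in MG CTL and 76.4 to 124 CPM in tdT- CTL sdCAMs (0.12 ± 0.18, adjusted p = 0.708). After BLZ945 it measured 123, 95.8, 99.999, 105 and 113 CPM in MG and 77.3, 35.9, 73.6, 75.8 and 49.6 CPM in tdT- sdCAMs, all of the latter below all of the former (-0.77 ± 0.18, adjusted p = 0.00234). In tdT+ sdCAMs, at 77.9, 111 and 90.1 CPM, it overlapped with MG (-0.20 ± 0.24, adjusted p = 0.635).

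The 3 inhibitors among these genes were lower in sdCAMs. Smad7, the inhibitory Smad that TGF-beta itself induces, measured 73.6, 72.5, 75.8, 76.0 and 65.5 CPM in MG CTL and 5.56, 0.930, 3.11, 3.73 and 3.41 CPM in tdT- CTL sdCAMs. In BLZ945 animals the levels were 90.9, 86.4, 105, 86.6 and 105 CPM in MG, 11.1, 5.19, 5.15, 8.98 and 0 CPM in tdT- sdCAMs and 2.03, 19.9 and 8.69 CPM in tdT+ sdCAMs. The tdT- BLZ945 library M2 held 0 of 9433960 counts, which allows up to 0.331 CPM, while the other sdCAM libraries held between 12 and 201 counts. Smad7 was 21.7-fold lower in CTL sdCAMs (log2 fold change -4.44 ± 0.56, adjusted p = 2.40e-06), 15.4-fold lower in tdT- BLZ945 sdCAMs (-3.95 ± 0.54, adjusted p = 7.48e-06) and 9.21-fold lower in tdT+ sdCAMs (-3.20 ± 0.88, adjusted p = 0.0187). The last value turned on single tdT+ libraries: the call was lost without F2 or M2 (adjusted p = 0.0669 and 0.0657), and without F3, the highest, the log2 fold change was -4.14.

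Skil, which encodes the SMAD-binding repressor SnoN, measured 135, 177, 160.3, 177 and 127 CPM in MG CTL and 45.8, 26.1, 16.6, 29.1 and 46.7 CPM in tdT- CTL sdCAMs. After BLZ945 it measured 238, 165, 239, 169 and 189.6 CPM in MG, 37.2, 19.6, 68.4, 9.37 and 18.7 CPM in tdT- sdCAMs and 39.3, 45.9 and 21.2 CPM in tdT+ sdCAMs. No sdCAM library reached an MG library, although the tdT- BLZ945 libraries ranged widely among themselves. The log2 fold changes were -2.24 ± 0.37, -2.69 ± 0.38 and -2.49 ± 0.51 (adjusted p = 7.91e-05, 9.60e-06 and 0.00310). Ski, the related repressor, measured 125, 141, 133, 143 and 116 CPM in MG CTL against 60.9, 81.1, 83.8, 64.1 and 50.1 CPM in tdT- CTL sdCAMs. In BLZ945 animals it measured 158, 202, 159.8, 185 and 166 CPM in MG, 49.4, 44.7, 63.5, 69.9 and 42.3 CPM in tdT- sdCAMs and 69.4, 47.4 and 59.8 CPM in tdT+ sdCAMs. Here too the populations did not overlap, and the log2 fold changes were -0.96 ± 0.15, -1.68 ± 0.16 and -1.55 ± 0.21 (adjusted p = 5.82e-05, 2.88e-08 and 7.91e-05).

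The levels of the 5 microglial markers in sdCAMs were set beside those of the 10 genes. In tdT- CTL sdCAMs the means of the 5 markers stood between 1.88% (Tmem119) and 15.04% (Gpr34) of the MG mean, in tdT- BLZ945 sdCAMs between 0.772% (Sall1) and 26.5% (Siglech), and in tdT+ sdCAMs between 0.925% (Sall1) and 22.3% (Siglech). In the same order of groups Tgfbr1 stood at 10.8%, 10.9% and 8.94%, and Smad7 at 4.60%, 6.42% and 10.8% of the MG mean, both within the span of these markers. Skil stood at 21.1%, 15.3% and 17.7%, within the span in tdT- BLZ945 and tdT+ sdCAMs and above it in tdT- CTL sdCAMs. Itgav stood at 29.3%, 30.2% and 29.0%, above the highest marker in each group. Smad3 was at 37.4%, 50.7% and 19.7%, within the span in tdT+ sdCAMs only, and Ski at 51.7%, 31.0% and 33.8%. The part of microglial RNA in the sdCAM levels of Tgfbr1, Smad7, Skil, Smad3 and the other genes was not tested. Neuronal markers, summed over 4 genes, were also higher in sdCAMs (42.6 to 123 CPM) than in MG (4.18 to 13.0 CPM), and their part in these differences was not tested. Dendritic cell markers, summed over 5 genes, measured 222 to 782 CPM in tdT- CTL, 30.9 to 161 CPM in tdT- BLZ945 and 34.7 to 84.5 CPM in tdT+ sdCAMs, against 2.46 to 8.86 CPM in MG, with Xcr1 at 0 in every sdCAM library and 2 or 3 of the 5 over the floor in every library of a group. The gate on CD11c would remove most dendritic cells, and the part of these markers in the differences between sdCAMs and MG was not tested either. Fibroblast and mural markers, summed over 6 genes, measured 19.8 to 72.5 CPM in sdCAMs and 0.339 to 5.62 CPM in MG. Astrocyte markers, summed over 5 genes, ran the other way in BLZ945 animals, at 207 to 289 CPM in MG and 55.7 to 175 CPM in tdT- sdCAMs without overlap, and overlapped in CTL animals (149 to 300.01 CPM in MG and 62.9 to 263.2 CPM in tdT- sdCAMs) and with tdT+ sdCAMs (58.6 to 216 CPM). The part of both lists in these differences was not tested.

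**Figure D3:**
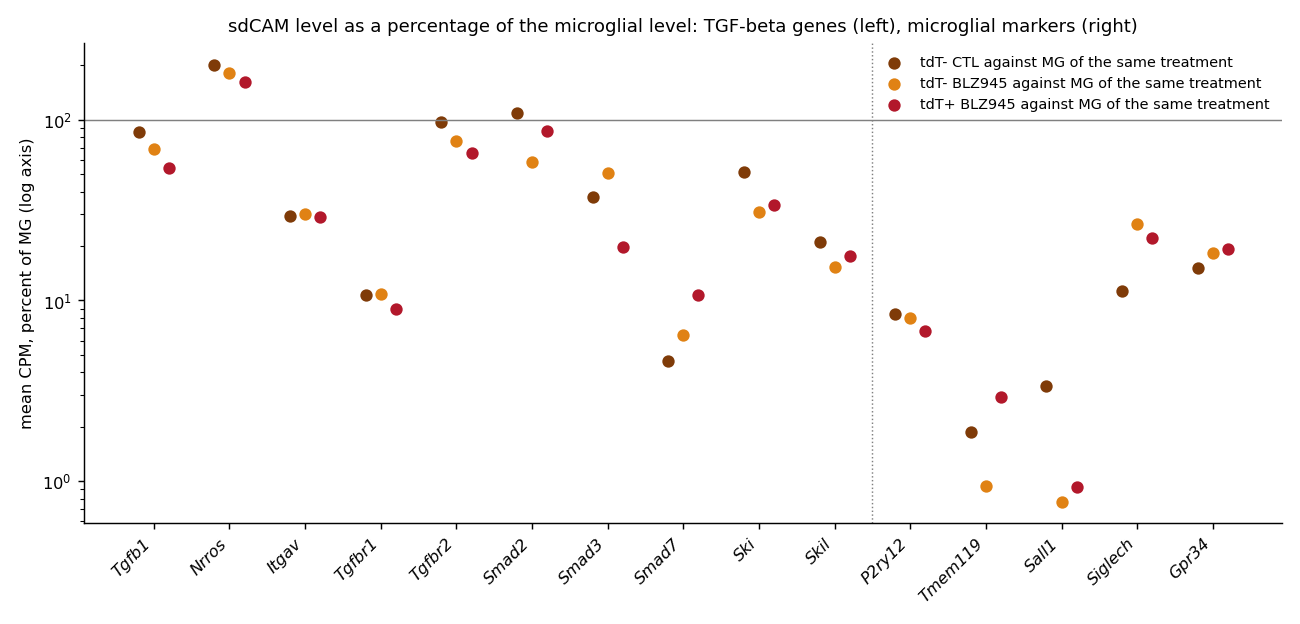
Mean CPM in sdCAMs as a percentage of the mean in MG of the same treatment (vertical axis, log scale) for the 10 genes, left of the dotted line, and for 5 microglial markers, right of it, in the 3 sdCAM groups (colours). Nrros lay above 100 in all 3 groups, at 202, 182 and 162, and Tgfbr1 and Smad7 lay in the span of the markers in all 3. Skil lay in the span in tdT- BLZ945 and tdT+ sdCAMs, and Smad3 in tdT+ sdCAMs.

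The second question was whether macrophages that had repopulated after BLZ945 differed from those of CTL animals. In MG none of the 10 genes was called by edgeR, where 0.408% of 11264 genes were called, and 3 had an unadjusted p under 0.05, as did 13.2% of all genes tested. These 3 were the inhibitors, each with a higher mean after BLZ945. Ski had a log2 fold change of 0.39 ± 0.10 (adjusted p = 0.106), Smad7 of 0.37 ± 0.10 (adjusted p = 0.133) and Skil of 0.35 ± 0.13 (adjusted p = 0.283). For Ski and Smad7 every MG BLZ945 library was above every MG CTL library, in the values given above, which was the case for 3.09% of the genes tested. DESeq2 called these 2 (adjusted p = 0.0233 for Ski and 0.0406 for Smad7) and not Skil (0.217), and called 2.06% of all genes. The other 7 genes lay between -0.03 and 0.16 on the log2 scale, with adjusted p-values from 0.578 to 0.933. The ligand, Nrros, Itgav and both receptors were among them, with Tgfbr1 at 0.04 ± 0.13 and Tgfbr2 at 0.14 ± 0.10. Each MG BLZ945 library but F2 was a pool of 2 animals and each MG CTL library was not, so treatment and pooling cannot be told apart except in F2.

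In tdT- sdCAMs none of the 10 genes was called between BLZ945 and CTL by edgeR or DESeq2, and 0.0% of 13076 genes were called by edgeR and 0.531% by DESeq2. The gene with an unadjusted p under 0.05, as 5.33% of all genes had, was Smad2, at -0.71 ± 0.22 (unadjusted p = 0.00648, adjusted p = 0.645). Its CTL libraries measured 97.5, 124, 76.4, 114 and 103 CPM and its BLZ945 libraries 77.3, 35.9, 73.6, 75.8 and 49.6 CPM, so that F1 of BLZ945 just exceeded F3 of CTL, the lowest of its group. Smad7 lay at 0.87 ± 0.94 and Skil at -0.09 ± 0.46. The sum of dendritic cell markers given above did not overlap between these 2 groups, and its part in their values was not tested. The median over the 10 genes was -0.12, and -0.0012 over all genes tested.

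The interaction of treatment and population, tdT- sdCAMs against MG, called none of the 10 genes by edgeR or DESeq2, where 0.0394% of genes were called by edgeR and 0.789% by DESeq2. At an unadjusted p under 0.05, as 8.69% of all genes were, stood Smad2 (-0.89 ± 0.25, unadjusted p = 0.00216, adjusted p = 0.261) and Ski (-0.72 ± 0.22, unadjusted p = 0.00319, adjusted p = 0.288), where a negative value means a lower effect in sdCAMs than in MG. Both genes had higher means after BLZ945 in MG and lower means in tdT- sdCAMs. Mean Ski went from 131 ± 11.2 to 174 ± 18.9 CPM (SD, n = 5) between CTL and BLZ945 in MG. In tdT- sdCAMs the corresponding means were 68.0 ± 14.2 and 54.0 ± 12.1 CPM (SD, n = 5).

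**Figure D4:**
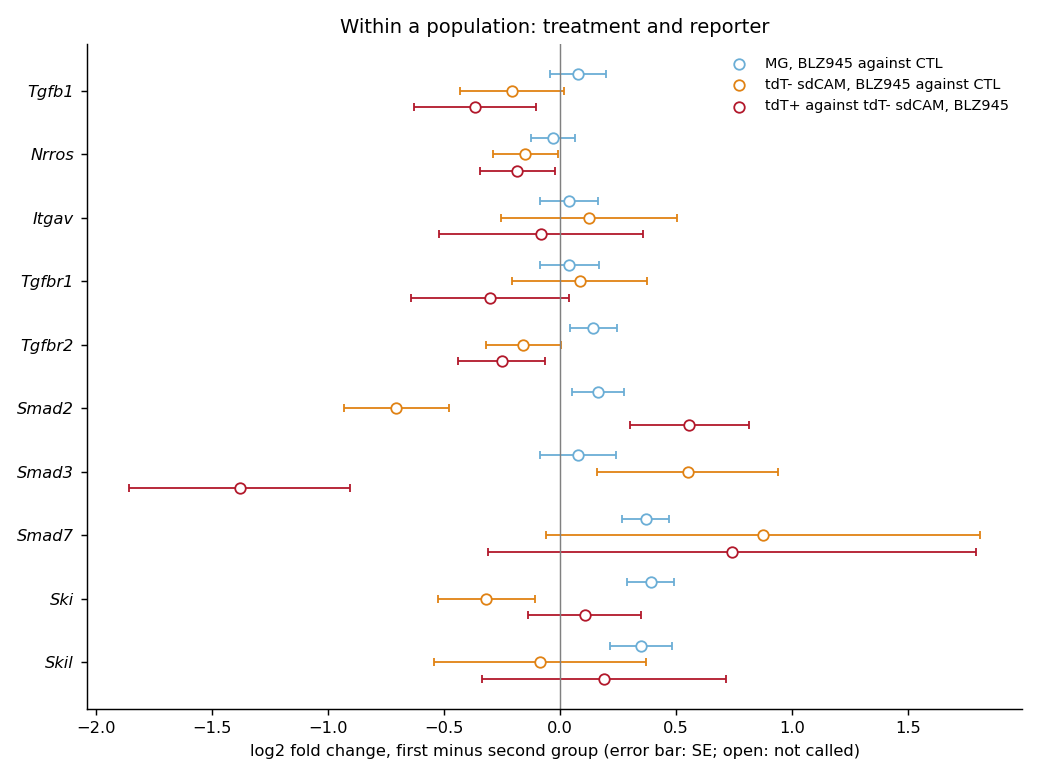
Log2 fold change (horizontal axis) of the 10 genes (rows) for BLZ945 minus CTL in MG and in tdT- sdCAMs and for tdT+ minus tdT- sdCAMs of BLZ945 animals; bars are standard errors, and all points are open because no gene was called. Ski, Smad7 and Skil lay between 0.35 and 0.39 in MG, and Smad3 lay at -1.38 for tdT+ against tdT- sdCAMs.

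The third question was whether sdCAMs of monocyte origin (tdT+) differed from tdT- sdCAMs. Against tdT- cells of BLZ945 animals none of the 10 genes was called by edgeR, where 0.206% of 13076 genes were called, and 2 had an unadjusted p under 0.05, as did 6.91% of all genes. These 2, Smad3 and Smad2, were also those whose groups did not overlap, which was the case for 3.40% of the genes tested. Smad3 had a log2 fold change of tdT+ minus tdT- cells that was negative but not called (-1.38 ± 0.47, adjusted p = 0.5261), with 58 to 64 counts in the tdT+ libraries and 136 to 166 in the tdT- libraries. DESeq2 called it (adjusted p = 0.00864), and 1.32% of all genes, as did edgeR in a model of all 23 libraries (adjusted p = 0.0387), whereas the fit with the animal as a block did not (log2 fold change -1.44 ± 0.85). Smad2 had a positive one, also not called (0.56 ± 0.26, adjusted p = 0.711, and 0.453 with DESeq2). The other 8 genes lay between -0.37 and 0.74. Against tdT- sdCAMs of CTL animals none of the 10 genes was called by edgeR or DESeq2, where 0.283% of genes were called by edgeR and 1.67% by DESeq2, and 2 had an unadjusted p under 0.05, as did 7.44% of all genes. These were Tgfb1 (-0.57 ± 0.27, adjusted p = 0.656) and Tgfbr2 (-0.41 ± 0.19, adjusted p = 0.645), neither of them called. The sums of dendritic cell and border macrophage markers given above did not overlap between these 2 groups either, and their part in these values was not tested. Smad3 had a log2 fold change of -0.83 ± 0.46 there (adjusted p = 0.759). The 2 comparisons share the tdT+ libraries. Of the 3 libraries in the tdT+ group, 1 came from a single animal.

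To compare the genes with each other, CPM was divided by the length of the exons of each gene in GENCODE M21. In MG CTL the order of the levels per length was Tgfbr1 (148 ± 30.7 CPM per kb, SD, n = 5), Nrros (86.5 ± 9.79), Tgfbr2 (41.0 ± 3.57), Tgfb1 (26.7 ± 1.97), Ski (23.6 ± 2.02), Smad7 (16.1 ± 0.952), Skil (16.0 ± 2.41), Itgav (11.5 ± 2.00), Smad2 (10.8 ± 1.38) and Smad3 (5.16 ± 1.27). The neighbours Tgfb1 and Ski, Smad7 and Skil, Skil and Itgav, and Itgav and Smad2 overlapped between libraries, the others did not. In tdT- CTL sdCAMs Nrros (175 ± 18.5 CPM per kb, SD, n = 5) and Tgfbr2 (39.6 ± 4.87) led without overlap. Tgfb1 (22.9 ± 5.16), Tgfbr1 (16.0 ± 7.64), Ski (12.2 ± 2.55) and Smad2 (11.7 ± 2.05) followed, each overlapping with the next. Skil (3.39 ± 1.35), Itgav (3.36 ± 0.747), Smad3 (1.93 ± 0.777) and Smad7 (0.740 ± 0.366) came last, again each overlapping with its neighbour. Tgfbr1 thus exceeded Tgfbr2 per length in every MG library group and lay below it in every sdCAM group, at 16.7 ± 4.01 against 35.0 ± 5.70 CPM per kb in tdT- BLZ945 (n = 5) and 13.7 ± 3.67 against 29.8 ± 7.66 in tdT+ BLZ945 sdCAMs (n = 3).

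Of 48 further genes of the pathway, 37 were tested in CTL animals for tdT- sdCAMs against MG, of which 5 were higher, 6 lower and 26 not called, with a median log2 fold change of -0.06, where 25.6% of all genes were called. In the BLZ945 comparisons 6 were higher and 9 lower of 37 for tdT- sdCAMs (32.4% of all genes called), and 3 higher and 5 lower of 39 for tdT+ sdCAMs (18.9% of all genes called). Counts this near the share over all genes show nothing particular to the list, and the same shares apply to the lists below. None was called by edgeR between BLZ945 and CTL in MG (5 of 34 at an unadjusted p under 0.05, 0 by DESeq2) or in tdT- sdCAMs (2 of 39, 0 by DESeq2), and none between tdT+ and tdT- sdCAMs of BLZ945 animals (2 of 39, 1 by DESeq2). These lists and those below were chosen with earlier results of these data known.

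Among 15 genes of latency and activation, 10 were tested in CTL animals, of which 1 was higher and 3 lower in sdCAMs. Itgb5, the beta-5 chain that pairs with alpha-v, measured 1059.5 to 1614 CPM in MG CTL and 243 to 392 CPM in tdT- CTL sdCAMs (-2.12 ± 0.16, adjusted p = 8.92e-10). Itgb3, the other partner chain called, measured 20.9 to 34.9 CPM in MG CTL and 0 to 0.505 CPM in tdT- CTL sdCAMs (adjusted p = 5.45e-05), up to 13.4 CPM in 1 library of tdT- BLZ945 sdCAMs, with 0 counts in all 3 tdT+ libraries. Itgb3 and Itgb5 were called lower in all 3 comparisons, as Itgav was. Mmp9, a gelatinase that can release latent TGF-beta, was higher in tdT- CTL sdCAMs (79.1 to 164 CPM against at most 1.44 CPM in MG CTL, adjusted p = 6.26e-09). Mmp2, a related gelatinase named after its values were seen, was lower (7.16 to 19.2 CPM in MG CTL and 0 to 2.95 CPM in tdT- CTL sdCAMs, adjusted p = 7.49e-04). In tdT- BLZ945 sdCAMs the protease gene Furin, which cleaves the TGF-beta precursor, was called lower as well (-0.58 ± 0.17, adjusted p = 0.0121).

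Of the other receptors, Eng, a co-receptor known mostly from endothelium, was lower in tdT- sdCAMs (28.9 to 43.7 CPM in MG CTL and 4.01 to 11.1 CPM in tdT- CTL sdCAMs, -2.15 ± 0.53, adjusted p = 0.00394). Endothelial markers summed to 16.8 to 26.3 CPM over 6 genes in MG CTL and 7.22 to 47.0 CPM in tdT- CTL sdCAMs, and their part in the Eng values was not tested. The ligand gene Tgfb3 was called higher in tdT- sdCAMs at low counts (0 to 3.81 CPM in CTL, 0 to 0.0911 CPM in MG CTL, adjusted p = 0.00540), and in BLZ945 animals its call was lost without MG library F1 or M2 or tdT- library M1 (adjusted p = 0.0619, 0.0639 and 0.0685), without the BLZ945 libraries of 1 animal (0.0609) and in the model of all 23 libraries (0.0623). Fibroblast and mural markers, summed over 6 genes, were likewise higher there, at 22.6 to 35.8 against 1.46 to 5.62 CPM, and their part in the Tgfb3 values was not tested. None of 4 tested genes for other Smads was called by edgeR in any comparison, with at most 2 at an unadjusted p under 0.05, and DESeq2 called 1, in tdT- BLZ945 sdCAMs against MG.

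Among 22 partners and regulators of the Smads, 20 were tested, of which 3 were higher and 2 lower in CTL sdCAMs, 4 higher and 4 lower in tdT- BLZ945 sdCAMs and 2 higher and 3 lower in tdT+ sdCAMs. The rises in tdT- BLZ945 sdCAMs included Ncor1, named after its values were seen (0.49 ± 0.17, adjusted p = 0.0302). Its call held in 3 of the 10 fits that each left out 1 library and was lost without F1 and M1 (0.0638). Dab2, an endocytic adaptor that binds TGF-beta receptors and SMADs, was higher in all 3 comparisons (2056 to 2570.1 CPM in tdT- CTL sdCAMs, 88.8 to 372 CPM in MG CTL, 3.60 ± 0.33, adjusted p = 2.25e-08). Fkbp1a encodes FKBP12, which keeps the type I receptor inactive, and was also higher in all 3 (1.18 ± 0.15 in CTL animals, adjusted p = 4.03e-06). Pmepa1, a TGF-beta-induced protein that holds back SMAD2 and SMAD3, was lower (104 to 177 CPM in tdT- CTL sdCAMs, 280.5 to 482 CPM in MG CTL, -1.56 ± 0.22, adjusted p = 7.90e-06), as was the SMAD corepressor gene Tgif1 (-0.74 ± 0.16, adjusted p = 0.00134). Pmepa1 and Tgif1 were called in the same direction in both BLZ945 comparisons. Smurf1, a ubiquitin ligase that acts on SMADs and receptors, was lower in both BLZ945 comparisons (-1.64 ± 0.28 for tdT- and -2.46 ± 0.45 for tdT+ sdCAMs, adjusted p = 1.02e-04 and 0.00128) and was not called in CTL animals. Tgfbrap1, which encodes a protein associated with TGF-beta receptors, was higher in tdT- sdCAMs of CTL (0.75 ± 0.22, adjusted p = 0.0150) and of BLZ945 animals (0.81 ± 0.22, adjusted p = 0.00750, and 0.0542 without the libraries of 1 animal). Rnf111, a ubiquitin ligase that marks SMAD7, Ski and SnoN for degradation, was lower in tdT- BLZ945 sdCAMs (-1.06 ± 0.20, adjusted p = 3.87e-04).

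Genes that TGF-beta is known to induce in many cell types did not move together. Of 14, 13 were tested in CTL animals, with 3 higher and 3 lower in sdCAMs and a median log2 fold change of 0.44. Tgfbi, a matrix protein named for its induction by TGF-beta, was higher (945 to 1373 CPM in tdT- CTL sdCAMs, 69.5 to 195 CPM in MG CTL, 3.20 ± 0.25, adjusted p = 1.60e-09). Ldlrad4, a brake on SMAD activation, was lower (-2.54 ± 0.55, adjusted p = 0.00135), as was Id2, an inhibitor of helix-loop-helix factors (-2.24 ± 0.39, adjusted p = 1.38e-04). Rgs1, a regulator of G protein signalling, was lower too (-2.19 ± 0.42, adjusted p = 4.08e-04), and the immediate early gene Fos was higher (1.77 ± 0.29, adjusted p = 6.74e-05). In the BLZ945 comparisons 4 were higher and 4 lower for tdT- sdCAMs and 4 higher and 2 lower for tdT+ sdCAMs. In tdT+ sdCAMs Ldlrad4 was lost with the animal as a block (adjusted p = 0.112) and without the libraries of 1 animal (0.0882). It was also lost without MG library F2, F3, M1 or M2 or tdT+ library F2 or F3 (0.0503 to 0.0919). Fos was lost there in 5 of the 8 fits that each left out 1 library. Id3, related to Id2, was among the 4 rises in tdT+ sdCAMs (2.67 ± 0.45, adjusted p = 7.04e-04). In MG 1 gene of this list, Bhlhe40, was called higher after BLZ945 (0.509 to 5.05 CPM in CTL, 9.43 to 24.4 CPM in BLZ945, 2.77 ± 0.47, adjusted p = 0.0132), and its call was lost without MG CTL library F2 (adjusted p = 0.0506), without MG BLZ945 library F3 (0.0527) or in the model of all 23 libraries (0.282).

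The list of microglial genes that TGF-beta keeps on held 10 genes in the table. All 10 were lower in sdCAMs in each of the 3 comparisons with MG, with median log2 fold changes of -4.05, -4.23 and -3.98, and 0 of the 10 were called between MG BLZ945 and MG CTL by edgeR or DESeq2 (1 at an unadjusted p under 0.05). This list holds the markers P2ry12, Tmem119, Sall1, Siglech and Gpr34 by which MG were checked, so its direction against sdCAMs is not independent of the population. The largest falls in CTL animals were those of Slc2a5 (-5.91 ± 0.42), Tmem119 (-5.73 ± 0.39) and Sparc (-5.59 ± 0.33). Of 10 genes that rise in microglia when TGF-beta signalling is lost, 5 were higher and 4 lower in CTL sdCAMs, where 3 of the 4 falls had an average log2 CPM of at least 3. Cst7, a cysteine protease inhibitor (-4.16 ± 0.52, adjusted p = 2.42e-06), and the lipase gene Lpl (-3.91 ± 0.66, adjusted p = 9.76e-05) were called with the block and in each fit that left out 1 library, while Lgals3, which encodes galectin-3 (-1.44 ± 0.47, adjusted p = 0.0255), was lost with the animal as a block (adjusted p = 0.0721) and in 5 of those 10 fits, moving most without MG CTL library M2 (log2 fold change -0.58, adjusted p = 0.271). Apoe, a lipid carrier, Ms4a7 and Cd74, the invariant chain of MHC class II, were among the 5, and border macrophages are known to express all of them at rest. In BLZ945 animals 5 were higher and 3 lower in tdT- sdCAMs, and 4 were higher and 3 lower in tdT+ sdCAMs. In tdT- sdCAMs Axl and Lgals3 were lost without F1 and M1 (adjusted p = 0.220 and 0.104), but not only then. Axl was also lost with the animal as a block (0.0547) and without each MG BLZ945 library in turn (0.0505 to 0.0981). Lgals3 was also lost with RLE scaling (0.0518) and without several single libraries, such as MG BLZ945 M2 (0.118). In tdT+ sdCAMs Cst7 was lost with the animal as a block (0.0615) and without the libraries of 1 animal (0.0545). It was also lost without several single libraries, such as tdT+ M2 (0.0934). The median log2 fold changes of the list were 0.92, -0.12 and -0.04 in the 3 comparisons. Cd74 was also called higher in tdT+ BLZ945 than in tdT- CTL sdCAMs (1.85 ± 0.34, adjusted p = 0.0244), a call that was lost in 5 of the 8 fits that each left out 1 library (adjusted p from 0.0859 to 0.159). Axl, a receptor for apoptotic cells, was called higher in MG after BLZ945 (7.11 to 39.9 CPM in CTL, 55.0 to 94.3 CPM in BLZ945, 2.24 ± 0.37, adjusted p = 0.0100), and the other 9 genes were not called there.

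In the related branch of bone morphogenetic proteins (BMPs) and activins, 10 of 13 genes were tested in CTL animals, with 3 higher and 1 lower in sdCAMs, and 2 higher and 2 lower in tdT- and 3 higher and 2 lower in tdT+ sdCAMs of BLZ945 animals. The ligand gene Bmp2 was higher in all 3 comparisons (69.9 to 204 CPM in tdT- CTL sdCAMs, at most 0.339 CPM in MG CTL). The type I receptor gene Acvr1 was lower in all 3 (-2.03 ± 0.48 in CTL animals, adjusted p = 0.00293), though not in tdT- BLZ945 sdCAMs without F1 and M1 (adjusted p = 0.0612) or in tdT+ sdCAMs without F2 (0.0503). With the animal as a block 2 of the 3 rises in tdT+ sdCAMs were lost, those of the ligand genes Bmp4 and Bmp7, named after their values were seen (adjusted p = 0.0748 and 0.0647), and Bmp7 was lost in CTL animals in 5 of the 10 fits that each left out 1 library (adjusted p from 0.0627 to 0.0878). The fall of the type I receptor gene Bmpr1a in tdT- BLZ945 sdCAMs was lost in 7 of the 10 such fits (adjusted p from 0.0556 to 0.0957) and, in tdT+ sdCAMs, without F2 (0.0526).

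Correlations of log2(CPM + 1) over the 23 libraries are given as a description, and the libraries share populations and animals. Tgfbr1, Smad7, Ski, Skil, Itgav and Smad3 correlated with each other at Pearson r from 0.71 to 0.91, and each correlated with Nrros at r from -0.87 to -0.75. Smad2 correlated with none of the other 9 genes above r = 0.53. Among 4917 genes with a mean log2(CPM + 1) of at least 5, those most like Tgfbr1 included Itgb5 (r = 0.98) and St3gal5 (0.98). Most like Smad7 were Hvcn1 (0.95), F11r (0.94) and Serpine2 (0.94), and most like Skil were Extl3, F11r and Adgrg1 (0.94 each). Among the genes most like Itgav were Irf5 (0.95) and Il1a (0.95). Ski was most like Mertk (0.97), Ikzf1 (0.96) and Cx3cr1 (0.96), and Smad3 most like Sash3 (0.91), Lpcat3 (0.90) and Ctc1 (0.90). Nrros was most like Lamp1 (0.96), Crtap (0.96) and Snx2 (0.95). Likeness was weaker for Smad2, led by Wdr5 (0.86), Ppp4r3a (0.86) and Mtmr3 (0.84), for Tgfb1, led by Tnfrsf13b (0.83), Dock8 (0.82) and Rgmb (0.81), and for Tgfbr2, led by Slc23a2 (0.81), Mknk1 (0.81) and Rgmb (0.79).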

How the data were processed

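RNA-seq of sorted MG and sdCAMs was analysed in 23 libraries of 5 groups. The deposited values were raw counts per gene symbol, which the authors made with bcl2fastq 2.20, STAR 2.7.11a and featureCounts 2.0.6 per the labels, from SMART-Seq mRNA LP libraries, which carry no strand information. The methods name different genome builds, so no coordinates are given other than those of the RefSeq promoter windows. Groups came from the sample titles. Counts were tested with edgeR 4.0.16 (R 4.3.3, TMM scaling, filterByExpr, quasi-likelihood F-test, Benjamini-Hochberg adjustment over all genes tested). MG and tdT- sdCAMs were fitted together (20 libraries), and so were MG alone (10), sdCAMs alone (13) and all BLZ945 libraries for tdT+ sdCAMs against MG (13), each group as its own term. DESeq2 1.42.0, RLE scaling, other filters, a model of all libraries, the animal as a block, the letter of the title and leaving out each library were the alternatives. Leaving out the tdT- BLZ945 libraries F1 and M1 was chosen after seeing the data. MG and sdCAMs of the same title number come from the same animals, per the titles, and the deviations of same-animal libraries from their group means correlated at a mean r of 0.149 in CTL animals and 0.135, 0.116 and 0.191 among BLZ945 groups (7866 genes). No libraries were duplicates. Replicates of a group are libraries of 1 animal or of a pool, and BLZ945 F2 and M1 may share an animal. Library totals were 9433960 to 13276081 counts. The 10 genes and the lists were chosen with earlier results of these data known. All 10 genes were described, and the genes named from a list were taken, for each comparison, from among the 3 largest called rises and the 3 largest called falls at an average log2 CPM of at least 3, or all called genes in lists of 8 or fewer, apart from those said to be named after their values were seen. All columns of the counts table were used. Some genes of the lists are not reported here. Scripts were tested on simulated counts with known fold changes.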

Additional observations from a re-analysis of the deposited data

Results flagged for a closer look

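Itgav stood apart in 1 library of tdT- CTL sdCAMs. Library M1 measured 50.1 CPM, with the nearest of the other 4 at 34.7 CPM and the lowest at 29.8 CPM, a gap large for the range of the group by Dixon's test. It was the only such value among 40 sets of 5 libraries tested over the 10 genes, and chance gives about 1 in 20.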

How the results depend on the processing

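The 26 called values of the 10 genes kept their direction under every alternative run. Called genes numbered 7 to 8 in tdT- sdCAMs against MG of CTL animals, 9 to 10 in tdT- and 6 to 9 in tdT+ sdCAMs against MG of BLZ945 animals when single libraries were left out. DESeq2 called 2 genes between MG BLZ945 and MG CTL and 1 between tdT+ and tdT- sdCAMs, and the model of all 23 libraries called 1 in the latter, where the edgeR fit called 0. Requiring at least 10 counts in every library removed Smad7 from all comparisons except that of MG BLZ945 with MG CTL. With the animal as a block 7, 10 and 8 genes were called against MG, and it changed no call other than that of Tgfb1 in tdT+ sdCAMs among the 10 genes. Leaving out the BLZ945 libraries of 1 animal left 6 genes called for tdT+ sdCAMs against MG, with Tgfb1, Tgfbr2 and Smad7 lost (adjusted p = 0.156, 0.0691 and 0.0828). In the comparisons across treatments the replicate number is only shared, and its mean r was 0.0444 for MG, -0.0133 for tdT- sdCAMs and -0.0583 for tdT+ BLZ945 against tdT- CTL sdCAMs.

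Uncalled values changed sign as follows, and the cause was not tested. Between tdT- BLZ945 and tdT- CTL sdCAMs, Tgfbr1 was -0.12 without libraries F1 and M1, and Skil was 0.029 without the library of 1 animal and 0.13 without F1 and M1. Between tdT+ and tdT- sdCAMs of BLZ945 animals, Itgav was 0.30 with the replicate block, Ski -0.071 without libraries of 1 animal and Skil -0.023 without F1 and M1. Between tdT+ BLZ945 and tdT- CTL sdCAMs, Skil was -0.092 with the replicate block and -0.066 with the letter of the title as a covariate. In the test of the treatment effects against each other, Itgav was -0.10 with the replicate block and -0.0015 without F1 and M1, Tgfbr1 -0.16 and Smad7 -0.30 without F1 and M1. Leaving out single libraries gave ranges across 0 in MG BLZ945 against CTL for Tgfb1 (-0.0056 to 0.16), Nrros (-0.085 to 0.017), Itgav (-0.025 to 0.13) and Tgfbr1 (-0.070 to 0.13). It did so in tdT- BLZ945 against CTL for Itgav (-0.058 to 0.36), Tgfbr1 (-0.079 to 0.38) and Skil (-0.61 to 0.14), and in tdT+ against tdT- BLZ945 for Itgav (-0.40 to 0.11), Smad7 (-0.18 to 1.23), Ski (-0.0054 to 0.25) and Skil (-0.040 to 0.72). The same held in tdT+ BLZ945 against tdT- CTL for Itgav (-0.30 to 0.22), Tgfbr1 (-0.44 to 0.081) and Skil (-0.13 to 0.36), and between treatment effects for Itgav (-0.11 to 0.33) and Tgfbr1 (-0.11 to 0.32).

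Over all genes, calls between MG BLZ945 and MG CTL numbered 46 in the edgeR fit, 148 higher and 125 lower with DESeq2, 193 without a filter, 12 in the model of all 23 libraries, 89 with the replicate block and 94 without the library of 1 animal, and 22 to 102 when single libraries were left out. Between tdT- BLZ945 and tdT- CTL sdCAMs they numbered 0, 72 with DESeq2 and 29 in the model of all libraries. Between tdT+ and tdT- sdCAMs of BLZ945 animals they numbered 27, 187 with DESeq2, 82 in the model of all libraries, 6 with the replicate block and 15 without F1 and M1, with 16 as the lowest number when single libraries were left out. Between tdT+ BLZ945 and tdT- CTL sdCAMs they numbered 37, 227 with DESeq2, 61 without a filter and 121 in the model of all libraries, with 21 as the lowest number when single libraries were left out. The treatment effects differed for 5 genes, 113 with DESeq2, 9 without a filter, 0 with at least 10 counts in every library or without the libraries of 1 animal, 1 in the model of all libraries or with the replicate block and 60 without F1 and M1, and 0 to 36 when single libraries were left out. The lowest levels per length of the 10 genes in sdCAMs, where counts are fewest for their length, were those of Smad7 in tdT- and Smad3 in tdT+ cells.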
